A study of Mus musculus with 69 samples.

Results

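Central memory CD8+ T cells (Tcm) of AAB mice were compared with Tcm of WT mice after culture with IL-15. The comparison was defined by the sample labels alone, as the 2 AAB and 2 WT libraries of Tcm with IL-15, which are 4 of the 69 samples of the series, and every gene of the count table entered it. The table lists 24309 genes, of which 9956 passed the filter on low counts and were tested. WT mice were Stat5a+/+ Stat5b+/+. AAB mice were Stat5a-/- Stat5b+/- and so kept a lone Stat5b allele. BBA mice, used here only where stated, were Stat5a+/- Stat5b-/- and kept a lone Stat5a allele, and BBA denotes below the libraries labelled so. The alleles were germline deletions, present in every cell of the animal and not only in T cells, and the ages of the mice were not used here. Cells were sorted by surface markers of central memory, CD44 high among them, from lymph nodes and spleen combined and cultured with IL-15 for 12 to 16 h per the labels. The same labels describe culture for libraries without cytokine, whereas the methods of the study describe those cells as taken directly ex vivo. No library used here lacked Stat5a alone, so loss of Stat5a and loss of a Stat5b allele cannot be told apart in AAB cells. The replicates are called biological in the methods, but the labels do not tie a library to an animal, and p-values measure only the spread between these samples.

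IL-15 is the main survival cytokine of memory CD8+ T cells. It acts through the IL-2 receptor beta chain and the common gamma chain, the kinases JAK1 and JAK3 phosphorylate STAT5A and STAT5B, and the STAT5 dimers bind DNA elements of the GAS type at genes for feedback inhibitors, survival factors, cytokine receptors and growth regulators. STAT5A and STAT5B are paralogs encoded by neighbouring genes. MYC, whose gene responds to cytokines that use STAT5, is a transcription factor with targets in ribosome biogenesis, nucleotide synthesis and nutrient uptake, and it binds the E-box CACGTG.

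The WT and AAB libraries held 15261927 to 17683997 counts in total, and the BBA libraries 9469916 to 12214284. Levels below are CPM, that is, each count divided by its library's TMM-normalized total and put on a shared scale. The summed level of 12 CD8 memory markers, all of which were tested, was 7904 and 7572 CPM in WT and 8694 and 8286 CPM in AAB. In BBA it was 7913 and 7798 CPM. None of the 12 was called between AAB and WT (2 higher with the replicate block). Between BBA and WT 2 of them were called lower and 2 higher, beside 1176 and 1162 of all 9956 genes tested. Between AAB and BBA 3 were called higher in AAB, against 3.14% of all genes tested. Markers of the labelled cell type were thus abundant in every genotype. In bulk libraries fewer cells of a type and less RNA per cell cannot be told apart. Markers of B cells summed to 228 and 495 CPM in WT, 180 and 550 CPM in AAB and 588 and 1201 CPM in BBA, so replicate 2 was the higher library in each genotype and BBA was highest. None of the 7 B cell markers tested was called between AAB and WT. Myeloid markers summed to 67.5 to 109 CPM, CD4 T cell markers to 21.6 to 31.9 CPM, gamma delta T cell markers to 5.87 to 34.5 CPM and NK cell markers to 10.3 to 15.6 CPM over the 6 libraries. Only 3 of the 7 gamma delta markers were in the count table, and Blk, at 4.56 to 31.3 CPM, made up most of their sum. Blk was, like the B cell markers, higher in replicate 2 of each genotype and highest in BBA. The sum is therefore no measure of gamma delta T cells. Erythroid markers summed to at most 3.72 CPM, and the globin genes Hbb-bs, Hbb-bt, Hba-a1 and Hba-a2 had no counts.

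Stat5a was nearly absent in AAB as labelled, whereas Stat5b was still present in the libraries labelled BBA. Stat5a (chr11:100859351-100885169, + strand, GRCm38) was at 82.6 and 91.1 CPM in WT, 2.73 and 2.69 CPM in AAB and 44 and 46 CPM in BBA. Its log2 fold change in AAB was -5.0 (SE 0.13, adjusted p = 1.03e-05). Adjusted p-values here and below come from the quasi-likelihood test of edgeR, adjusted over all genes tested by Benjamini-Hochberg, and changes are log2 fold changes of AAB over WT unless another pair is named. The neighbouring Stat5b (chr11:100780731-100850724, - strand, GRCm38) was at 177 and 211 CPM in WT, 100 and 96.4 CPM in AAB and 68.7 and 77.7 CPM in BBA, a change of -0.98 (SE 0.11, adjusted p = 0.00594) in AAB. Against WT, BBA was lower at Stat5a (-0.95 in BBA over WT, adjusted p = 0.000723) and at Stat5b (-1.40, adjusted p = 0.000345). BBA is labelled Stat5b-/-, yet Stat5b counts remained there and were not called apart from AAB (0.43 in AAB over BBA, adjusted p = 0.0632). Whether these reads lie outside the deleted part of the gene cannot be seen in counts per gene, so they do not check the BBA label, and every direction drawn from BBA below rests on the label. Per kilobase of exon, Stat5b made up 73.3% and 74.9% of the Stat5a and Stat5b mRNA of WT cells 97.9% of that of both AAB libraries, and 66.8% and 68.5% of that of the BBA libraries. The sum of both mRNAs per kilobase, with the WT mean set to 100%, was 39.2% and 37.7% in AAB and 39.3% and 43.4% in BBA, the latter including the Stat5b counts just described. These are transcript levels of near-identical paralogs, so that a part of the reads can be assigned to the wrong member, and protein was not measured in these libraries.

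A gene was called when its fold change passed 1.5 and its adjusted p was under 0.05, and 427 genes met both limits in AAB against WT, 4.29% of those tested. Of these, 256 were lower in AAB (2.57% of genes tested) and 171 were higher (1.72%). The counts of list members called below are read against these shares. The lists and members were chosen with earlier results of these data known, so this comparison is no independent test. Decreases were mostly small, with 189 of 256 between 1.5-fold and 2-fold and 15 above 4-fold (median 1.76-fold), while of the 171 increases 83 lay between 1.5-fold and 2-fold, 63 between 2-fold and 3-fold and 12 above 4-fold (median 2.01-fold). The median log2 fold change over all genes tested was 0.01. Of the genes lower in AAB, 22 had passed the filter through WT libraries alone, 15 through WT and AAB and 3 through WT and BBA. Of the higher genes, 7 had passed through AAB libraries alone, 28 through AAB and BBA and 14 through BBA alone, and so without WT. A replicate block raised the count to 703 genes, 344 lower and 359 higher. Counts of list members given below with the replicate block are read against these 344 and 359 of 9956 genes. Without WT replicate 1 it was 119 genes, without WT replicate 2 it was 227, without AAB replicate 1 it was 100 and without AAB replicate 2 it was 227. Of the 91 called genes named by the rule for this text, 37 kept their call whichever of the 4 libraries was left out, and they are pointed out below.

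**Figure D1:**
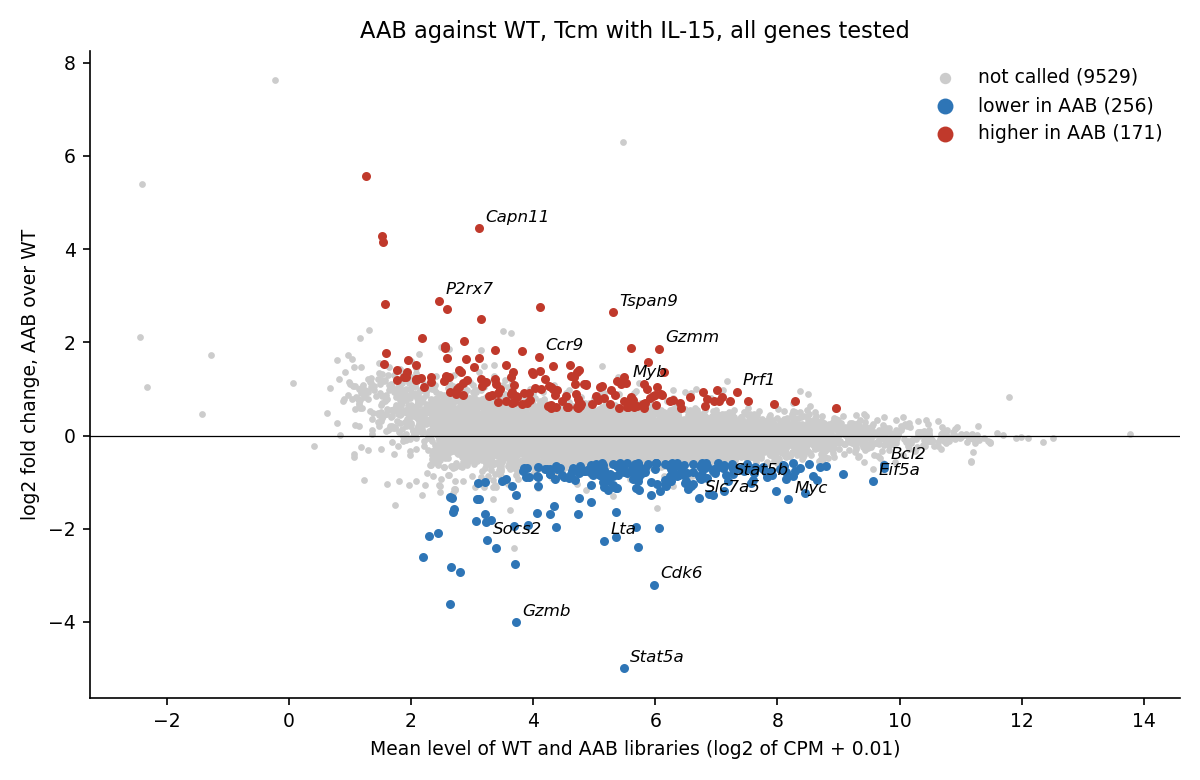
Log2 fold change of AAB over WT (y axis) against the mean level of the WT and AAB libraries (x axis, log2 of CPM + 0.01) for the 9956 genes tested in Tcm with IL-15. Blue points are the 256 genes called lower in AAB and red points the 171 called higher. Stat5a lies lowest, at -5.0, and Capn11 highest of the named genes, at 4.45.

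Genes known as STAT5 targets or feedback regulators were mostly lower in AAB where they were called. Of 47 listed genes 43 were tested, 12 were lower against 2.57% of all genes, 2 were higher against 1.72%, and the median change was -0.17. A few of these genes held a GAS motif near their start, TTCNNNGAA, which reads the same on both strands. The windows of 250 bases before to 50 bases after the RefSeq gene start held this motif at Cish, Gzmb and Lta among the 9 called-lower targets with a window (33.3%), and at 8.51% of 7674 tested genes with a window. Over all 256 lower genes the share was 11.4% of 202 windows, and over the 171 higher genes it was 8.8% of 125 windows. These are matches of letters and no measurement of binding. Because both genes were lower in AAB, the upstream sequence of Lta and the start of Cish are shown 5' to 3' from RefSeq GRCm38.p6, with the GAS matches in capitals. The Lta stretch, which lies before the start, is chr17:35205352-35205601 on the - strand, with matches that begin 152 and 16 bases before the start, and the Cish stretch is chr9:107296654-107296683 on the + strand, with matches that begin at bases 1 and 12 of the RefSeq transcript, a start that lies inside the longer Cish gene of the annotation used for positions.
Lta: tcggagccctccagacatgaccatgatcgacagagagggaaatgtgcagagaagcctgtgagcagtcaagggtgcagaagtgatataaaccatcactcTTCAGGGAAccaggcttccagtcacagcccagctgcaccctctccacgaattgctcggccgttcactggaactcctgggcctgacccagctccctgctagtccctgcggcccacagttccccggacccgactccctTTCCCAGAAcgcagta
Cish: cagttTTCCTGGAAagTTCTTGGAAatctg

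The feedback inhibitors Cish and Socs2 both fell. Cish, which encodes CIS, an inhibitor of cytokine receptor signalling, was at 62.7 and 51.1 CPM in WT, 26.8 and 25.5 CPM in AAB and 6.43 and 4.33 CPM in BBA. Its change in AAB was -1.12 (SE 0.17, adjusted p = 0.0142). Socs2, another member of the SOCS family, was at 16.6 and 14.6 CPM in WT and 3.33 and 3.25 CPM in AAB, a change of -2.24 (SE 0.23, adjusted p = 0.00468). These were the only called members among 8 SOCS family genes tested, and Socs2 kept its call in every leave-one-out fit, whereas Cish did not. Socs2 had passed the filter on low counts through WT libraries alone, the group where it was high.

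Among cytokines and receptors, Lta, Osm and Il2ra were lower. Lta, the gene of lymphotoxin alpha, was at 65.4 and 53.3 CPM in WT, 11.3 and 13.6 CPM in AAB and 11.5 and 9.79 CPM in BBA, so that the AAB and BBA libraries interleaved well below WT. The change in AAB was -2.26 (SE 0.16, adjusted p = 0.00263). Osm, which encodes oncostatin M, was at 52.6 and 56.8 CPM in WT and 29 and 22.2 CPM in AAB (-1.10, SE 0.20, adjusted p = 0.0246). Il2ra, the high-affinity chain of the IL-2 receptor, was at 13.6 and 12.7 CPM in WT, 2.73 and 4.56 CPM in AAB and 7.47 and 6.28 CPM in BBA (-1.84, SE 0.28, adjusted p = 0.0152). It was the only gene called among 24 common gamma chain receptors and JAKs, although the replicate block called 1 member higher as well. Il2rb, the beta chain that binds IL-15, was at 1288 and 1223 CPM in WT and 987 and 1059 CPM in AAB, and its change of -0.29 (SE 0.09, adjusted p = 0.0961) was not called. In BBA it was at 526 and 511 CPM, below both AAB libraries. Lta kept its call in every leave-one-out fit, but Osm and Il2ra did not.

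Several growth and survival regulators were also lower. Cdk6, a kinase that drives entry into the cell cycle with D cyclins, was at 121 and 107 CPM in WT, 9.2 and 15.5 CPM in AAB and 8.3 and 12.1 CPM in BBA, with no overlap between WT and either deficient genotype. It fell by 3.20 on the log2 scale in AAB (SE 0.25, adjusted p = 0.00357), while its partner Ccnd2 was at 948 and 895 CPM in WT and 845 and 856 CPM in AAB (-0.12, SE 0.08, adjusted p = 0.445). Myc was at 389 and 445 CPM in WT, 146 and 176 CPM in AAB and 72.6 and 89.9 CPM in BBA, in an order from WT through AAB to BBA without overlap, and its change in AAB was -1.37 (SE 0.14, adjusted p = 0.00477). Pim1, a survival kinase, was at 323 and 374 CPM in WT and 152 and 153 CPM in AAB (-1.19, SE 0.10, adjusted p = 0.00407), and its relative Pim3 changed by -0.59 (SE 0.12, adjusted p = 0.0347). Bcl2, the inhibitor of apoptosis, was at 1105 and 989 CPM in WT, 684 and 658 CPM in AAB and 320 and 279 CPM in BBA. It changed by -0.64 in AAB (SE 0.11, adjusted p = 0.0194), and with Bid (-0.91, adjusted p = 0.0255) it was one of 2 called genes among 14 BCL-2 family genes tested. Xbp1, a transcription factor of the unfolded protein response, was at 84.1 and 74.5 CPM in WT and 47.7 and 49 CPM in AAB (-0.71, SE 0.10, adjusted p = 0.011). Cdk6, Myc and Pim1 kept their calls in every leave-one-out fit, and Pim3, Bcl2, Bid and Xbp1 lost theirs without at least 1 library.

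The uncalled targets given here were named for their high levels, and the called Bcl2, described above, was also abundant. Besides Il2rb and Ccnd2, Ltb changed by -0.26, Mcl1 by 0.20 and Ccr7 by 0.11, each with an adjusted p of at least 0.0961. Ccr7 encodes a receptor for lymph node homing, and Mcl1 an inhibitor of apoptosis. The targets called higher were Prf1 and Dusp6, which are described with the cytotoxic and phosphatase genes.

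**Figure D2:**
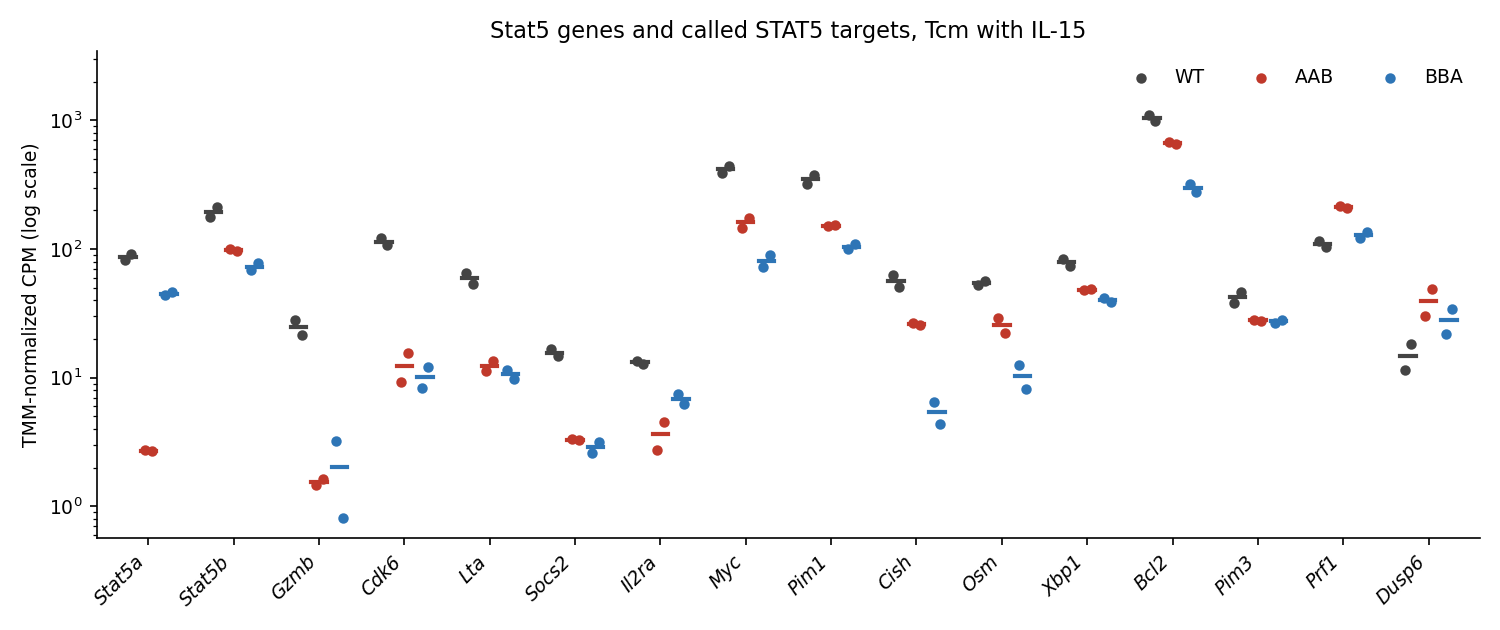
TMM-normalized CPM (log scale) of Stat5a, Stat5b and the 14 called STAT5 targets in the WT (black), AAB (red) and BBA (blue) libraries of Tcm with IL-15. Points are libraries and bars are means of 2. Cdk6, Lta and Socs2 lie at like levels in AAB and BBA, whereas Cish and Bcl2 lie between WT and BBA in AAB.

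Outside that list, called decreases included genes of mixed function. Slc30a4, a zinc transporter gene, was at 88.5 and 88.2 CPM in WT, 16 and 17.6 CPM in AAB and 24.2 and 19.9 CPM in BBA, a change of -2.39 in AAB (SE 0.12, adjusted p = 0.000416). Setbp1 and Mov10 are described here because they were among the genes with the smallest p in the interaction test given below. Setbp1, which encodes a SET-binding nuclear protein, was at 110 and 104 CPM in WT and 26.4 and 27.5 CPM in AAB (-1.98, SE 0.10, adjusted p = 0.000416). Mov10, an RNA helicase gene, was at 176 and 174 CPM in WT and 71.9 and 72 CPM in AAB (-1.28, SE 0.08, adjusted p = 0.00113). The replicates of these 3 genes nearly coincided and their calls held in every leave-one-out fit.

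The other large decreases, among calls with 50 or more normalized counts on average, were at genes of low level. Gbp11, a guanylate-binding protein gene, was at 16 and 29.2 CPM in WT and 3.6 and 3.06 CPM in AAB (-2.76, adjusted p = 0.00605). The chemotactic receptor gene Gpr15 was at 24.4 and 11.1 CPM in WT and 4.07 and 2.62 CPM in AAB (-2.41, adjusted p = 0.0239), with a wide gap between the WT libraries. D630039A03Rik changed by -3.61 and AA467197 by -2.61. Lilrb4 and Gp49a, inhibitory receptor genes of near-identical sequence that can share reads, changed by -2.92 and -2.83 and are uncertain as separate genes. Gpr15, AA467197 and Lilrb4 lost their calls without at least 1 library, and the other genes of this paragraph did not. Every gene of this paragraph had passed the filter on low counts through WT libraries alone, the group where it was high. Their p-values and kept calls are therefore not independent of that choice.

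A further group of decreases comprised genes for making ribosomes, nucleotides and imported nutrients. For these lists the count of members lower in AAB is read against 2.57% of all genes tested, and none of their members was called higher, apart from 1 transporter with the replicate block. Of 80 tested ribosome biogenesis genes (83 listed) 27 were lower, 79 had a log2 fold change below 0, and the median was -0.48. Polr1b, a subunit of RNA polymerase I, was at 84.8 and 77.4 CPM in WT and 39.2 and 41.9 CPM in AAB (-1.0, adjusted p = 0.00468). Nop2, an rRNA methyltransferase gene, was at 132 and 138 CPM in WT, 74.4 and 74.7 CPM in AAB and 40.5 and 38.2 CPM in BBA (-0.86 in AAB, adjusted p = 0.00468). Grwd1 and Noc4l, further ribosome assembly factors, changed by -0.94 and -0.86. All but Noc4l kept their calls in every leave-one-out fit.

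Of 38 tested genes for nucleotide, serine and one-carbon synthesis 15 were lower, with a median of -0.52. Srm, which makes spermidine, was at 123 and 133 CPM in WT, 53.7 and 61 CPM in AAB and 20.5 and 25.2 CPM in BBA (-1.16 in AAB, adjusted p = 0.00477). Odc1, the first enzyme of polyamine synthesis, changed by -0.97, the mitochondrial serine hydroxymethyltransferase gene Shmt2 by -0.95 and Cad, which starts pyrimidine synthesis, by -0.93. Polyamine genes thus stood beside the nucleotide genes at the head of this list. Among 17 transporters of amino acids and glucose 3 were lower (median -0.21). Slc7a5, a chain of the large neutral amino acid transporter, was at 149 and 152 CPM in WT, 52.9 and 66.3 CPM in AAB and 26.5 and 30.3 CPM in BBA (-1.34 in AAB, adjusted p = 0.00468). The cationic amino acid transporter gene Slc7a1 changed by -0.71 and the lactate and pyruvate transporter gene Slc16a1 by -0.61. Of the genes in this paragraph, Srm, Odc1, Shmt2 and Slc7a5 kept their calls whichever library was left out.

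In the MYC network 3 of 12 tested genes were lower, and besides Myc these were Tfap4 (-0.99, adjusted p = 0.00525) and Mybbp1a (-0.87, adjusted p = 0.00521). Glycolysis and pentose phosphate genes gave 3 of 26 lower with a median of -0.19. Tpi1, triosephosphate isomerase, was at 138 and 122 CPM in WT and 58.9 and 64.5 CPM in AAB (-1.08, adjusted p = 0.00468), and hexokinase 2 (Hk2) changed by -0.93 and enolase 1 (Eno1) by -0.75. Importins and exportins gave 5 of 27 lower with a median of -0.28, led by Ipo4 at 118 and 122 CPM in WT and 55.9 and 62.2 CPM in AAB (-1.02, adjusted p = 0.00407). The Ran regulators Ranbp1 and Rcc1 of that list changed by -0.80 and -0.74, and Ipo5 by -0.73. Chaperonins and heat shock proteins gave 3 of 31 lower with a median of -0.40, namely Hspd1 (-0.78) and Hspa9 (-0.65) of mitochondria and Cct3 (-0.62) of the cytosolic chaperonin. Tfap4, Mybbp1a, Tpi1 and Ipo4 kept their calls in every leave-one-out fit, whereas the other genes named here besides Myc did not.

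Translation factors gave 3 of 51 lower (5 with the replicate block), with a median of -0.22. Eif5a, the factor that carries hypusine made from spermidine, was at 1016 and 989 CPM in WT, 490 and 523 CPM in AAB and 290 and 301 CPM in BBA (-0.98 in AAB, adjusted p = 0.00407). Eef2k and Eif3b changed by -0.61 and -0.60. Aimp2, a scaffold of the tRNA synthetase complex, was the only call among 23 aminoacyl-tRNA synthetase genes (-0.64, adjusted p = 0.0194; 2 calls with the replicate block, list median -0.34). Fatty acid synthase (Fasn) at -0.66 and Acat2 at -0.66 were the calls among 34 cholesterol and fatty acid synthesis genes (median -0.17). Eif5a alone among these 6 genes kept its call in every leave-one-out fit.

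DNA replication genes had the lowest median of these lists, -0.53 over 47 tested genes, 46 of them below 0, but only 4 were called. These were Dut (-0.75), Prim1 (-0.74), Pold1 (-0.73) and Mcm7 (-0.70). Mcm7, a subunit of the replicative helicase, was at 212 and 212 CPM in WT and 109 and 152 CPM in AAB, so the AAB replicates were spread. With the replicate block 17 of the 47 genes were called lower, beside 344 of all 9956 genes, and each of the 4 calls was lost without at least 1 library.

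E-boxes were counted in the same promoter windows. CACGTG, which also reads the same on both strands, was present in 12.4% of the windows of all genes tested, in 27.2% of those of the genes lower in AAB (55 of 202) and in 8.8% of those of the higher genes (11 of 125). It was present at 6 of 23 called ribosome biogenesis genes with a window, namely Grwd1, Nle1, Nop2, Utp18, Utp20 and Wdr43, and at Atic, Impdh2 and Nme1 of 13 called nucleotide synthesis genes. A gene with several RefSeq starts counted once if any of its windows held the motif. As an example from the genes described above, the 130 bases before the RefSeq start of Nop2 (chr6:125131753-125131882, + strand) are given 5' to 3' from RefSeq GRCm38.p6, with the E-box, which begins 60 bases before that start, in capitals. No binding was measured here.
Nop2: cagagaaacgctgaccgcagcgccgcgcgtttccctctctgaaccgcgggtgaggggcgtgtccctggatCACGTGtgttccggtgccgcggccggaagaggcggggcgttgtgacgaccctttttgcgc

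Structural parts of the same machinery were not called. None of 74 cytosolic ribosomal protein genes (median -0.08), 77 mitochondrial ribosomal protein genes (median -0.19) or 75 oxidative phosphorylation subunits (median -0.14) passed the rule. Most members still had a log2 fold change below 0, namely 58, 63 and 67 in that order, beside 4864 of all 9956 genes. Rplp0 was at 4540 and 4379 CPM in WT and 4514 and 4115 CPM in AAB. Atp5b, a subunit of ATP synthase, had a change of -0.42 with an adjusted p of 0.0379, below the fold limit. No gene was called among 28 mitosis genes (median -0.05), 30 genes of the TCR complex and its proximal kinases (median 0.12), 21 MHC class I and antigen processing genes (median -0.01) and 3 tested NK receptor genes. With the replicate block, 1 mitosis gene was called higher and 1 NK receptor gene lower, and still none in the other lists of this paragraph.

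**Figure D3:**
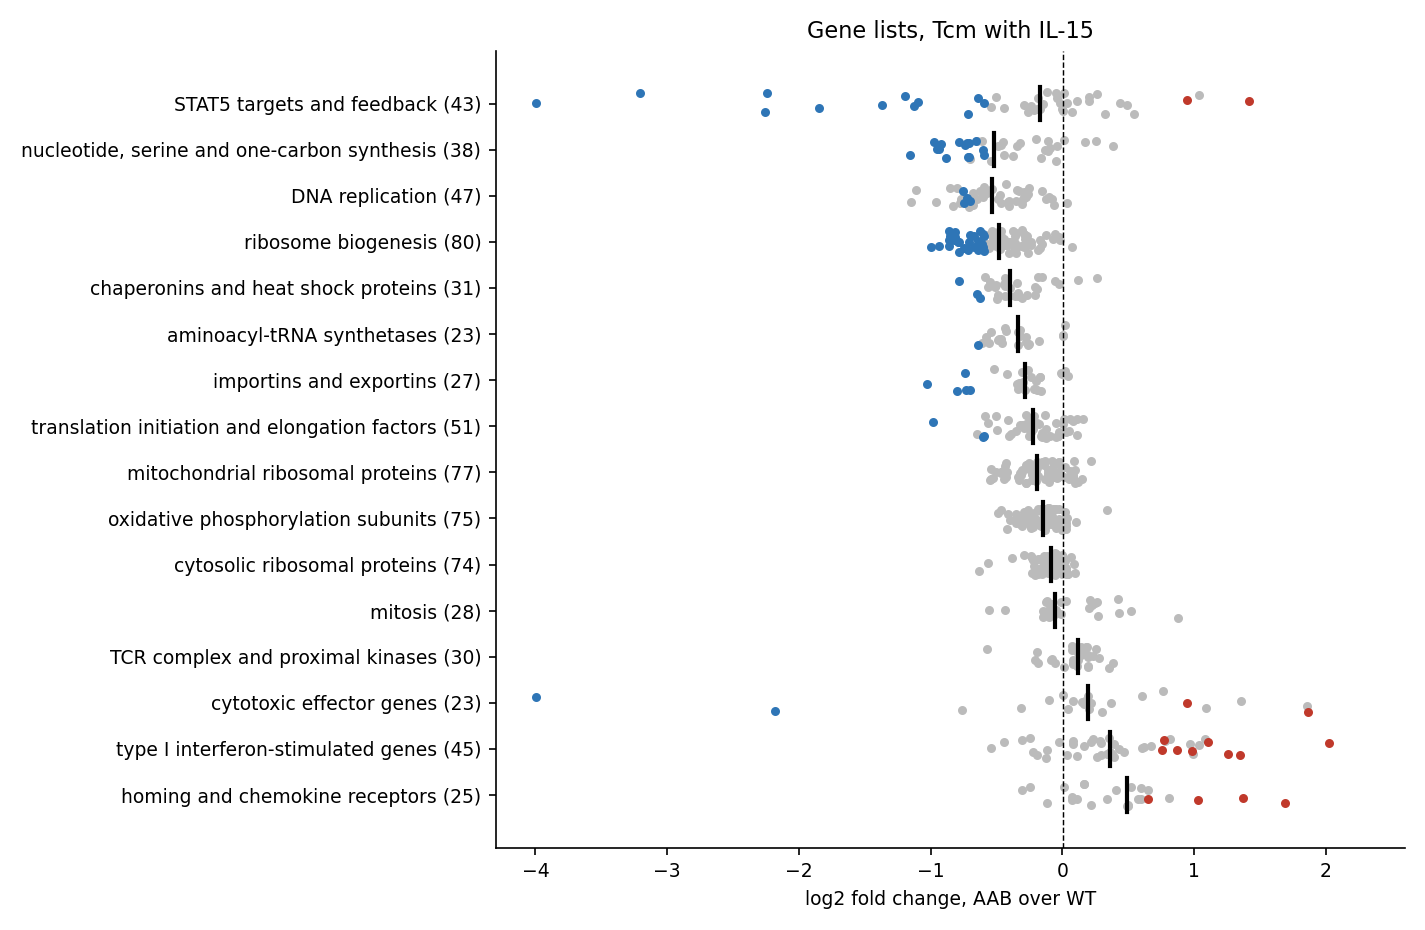
Log2 fold change of AAB over WT (x axis) for the tested members of 16 gene lists (rows, number tested in brackets) in Tcm with IL-15. Each point is a gene, blue if called lower in AAB, red if called higher and grey if not called. Black bars are list medians and the dashed line is the median of all genes tested, 0.01. The medians of ribosome biogenesis, nucleotide synthesis and DNA replication lie near -0.5 and those of interferon-stimulated genes and homing receptors above 0.3.

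Cytotoxic genes moved in both directions. Of 23 tested, 2 were lower and 2 were higher (6 higher with the replicate block), against 2.57% and 1.72% of all genes. Gzmb, the gene of granzyme B, was at 28.1 and 21.6 CPM in WT, 1.47 and 1.62 CPM in AAB and 3.22 and 0.816 CPM in BBA, the largest named decrease after Stat5a (-4.00, SE 0.47, adjusted p = 0.00605). Tnf was at 69.6 and 64.6 CPM in WT, 14.9 and 14.7 CPM in AAB and 7.16 and 3.18 CPM in BBA (-2.18, SE 0.25, adjusted p = 0.00592). Perforin, the pore-forming partner of granzymes, went the other way, with Prf1 at 116 and 104 CPM in WT, 216 and 207 CPM in AAB and 123 and 135 CPM in BBA (0.94, SE 0.10, adjusted p = 0.00468). The BBA libraries at Prf1 lay just above WT and below AAB.

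Gzmm, which encodes granzyme M, was also higher in AAB, at 35.1 and 22.8 CPM in WT, 113 and 97.9 CPM in AAB and 16.9 and 12.8 CPM in BBA. It changed by 1.86 against WT (SE 0.21, adjusted p = 0.00594) and by 2.83 against BBA (adjusted p = 0.00379), so that the AAB libraries stood above both other genotypes. Gzma was at 4.5 and 8.25 CPM in WT and 8.67 and 5.5 CPM in AAB, where the libraries overlapped (0.15, adjusted p = 0.854). Tnf, Prf1 and Gzmm kept their calls in every leave-one-out fit, and Gzmb did not. Gzmb had passed the filter on low counts through WT libraries alone, the group where it was high. The Gzmm promoter also holds a GAS match, although its level was higher and not lower in AAB. Its 130 bases upstream, chr10:79688890-79689019 on the + strand of RefSeq GRCm38.p6, are printed 5' to 3' for comparison with Lta and Cish, with the match, which begins 86 bases before the start, in capitals.
Gzmm: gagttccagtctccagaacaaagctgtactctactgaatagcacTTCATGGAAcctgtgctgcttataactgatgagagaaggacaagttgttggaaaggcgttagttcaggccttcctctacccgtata

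Among calls with 50 or more normalized counts on average, the largest increases were mostly in genes with low levels in WT. Capn11, a calpain protease gene, was at 0.702 and 0.806 CPM in WT, 10.7 and 22.4 CPM in AAB and 1.14 and 1.14 CPM in BBA. It changed by 4.45 against WT (SE 0.45, adjusted p = 0.00468) and by 3.85 against BBA (adjusted p = 0.00698). P2rx7, the receptor for extracellular ATP, was at 0.877 and 1.74 CPM in WT, 8.93 and 10.5 CPM in AAB and 14.9 and 10.3 CPM in BBA (2.89 against WT, SE 0.37, adjusted p = 0.00843). Tspan9, a tetraspanin gene, was at 12.2 and 9.67 CPM in WT, 64.9 and 72.2 CPM in AAB and 75.5 and 71.9 CPM in BBA, and with 2.64 (SE 0.14, adjusted p = 0.000416) it had the smallest adjusted p of the higher genes. Tspan9 was thus high in both deficient genotypes, and Capn11 was higher in AAB than in either other genotype. Capn11 had passed the filter on low counts through AAB libraries alone, and P2rx7 without WT. Their p-values are therefore not independent of that choice.

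The remaining large increases ranged from 1.87 to 2.76 on the log2 scale. Gm10653 was at 3.98 and 4.9 CPM in WT and 35.1 and 25.2 CPM in AAB (2.76, adjusted p = 0.00407). Rapgefl1 rose by 2.72, the guanine nucleotide exchange factor gene Arhgef10 by 2.50, Frmd4b by 1.92 and the ubiquitin ligase gene Rnf157 by 1.88. Camk2b, a calmodulin-dependent kinase gene, was at 1.93 and 3.1 CPM in WT, 10.3 and 8.12 CPM in AAB and 29.3 and 37.6 CPM in BBA. It changed by 1.87 in AAB against WT (adjusted p = 0.0137) and by -1.87 in AAB against BBA (adjusted p = 0.00958), so its levels stepped up from WT through AAB to BBA. Capn11, P2rx7, Gm10653, Tspan9 and Arhgef10 kept their calls in every leave-one-out fit. Gm10653, Rapgefl1, Arhgef10, Frmd4b and Camk2b had, like Capn11 and P2rx7, passed the filter without WT, so the same limit holds for them.

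**Figure D4:**
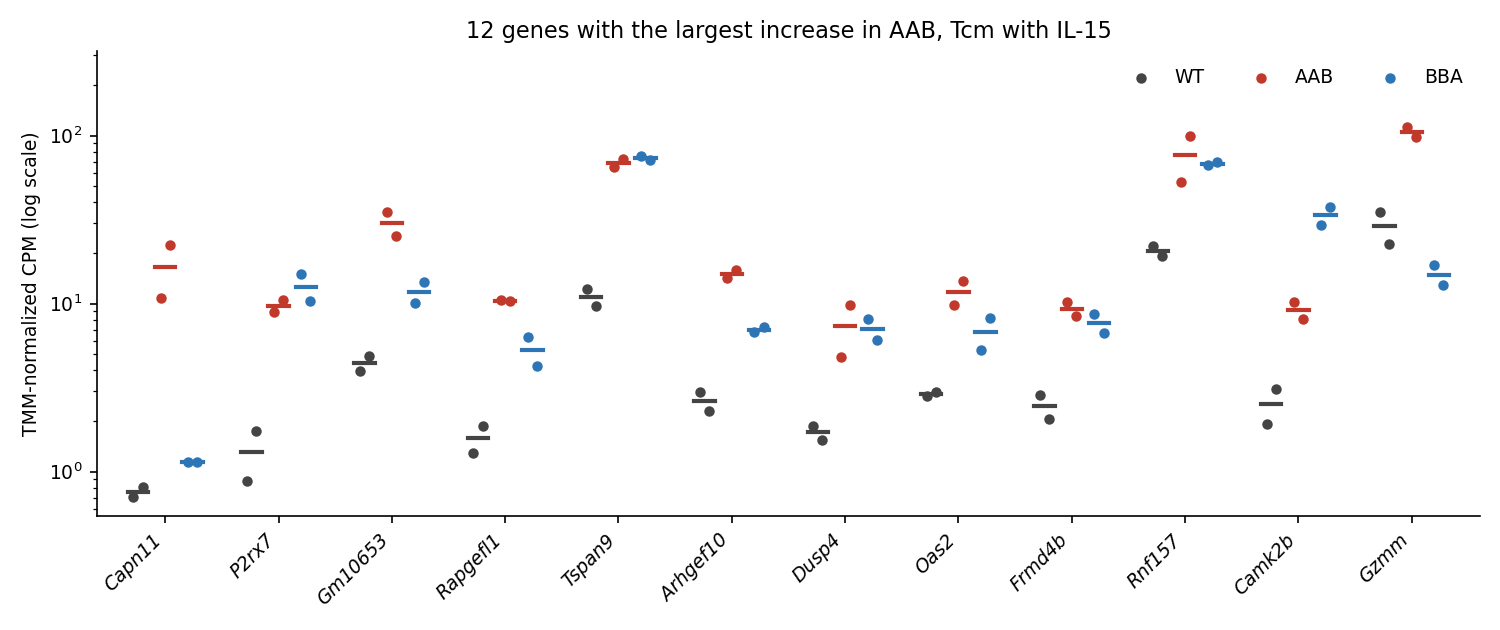
TMM-normalized CPM (log scale) of the 12 named genes with the largest increases in AAB, in WT (black), AAB (red) and BBA (blue) libraries of Tcm with IL-15. Points are libraries and bars are means of 2. Gzmm and Capn11 are higher in AAB than in both other genotypes, while Tspan9 is alike in AAB and BBA and Camk2b is highest in BBA.

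The called interferon-stimulated genes were higher in AAB. Of 45 tested type I interferon-stimulated genes 8 were higher against 1.72% of all genes tested (13 with the replicate block, which called 359 genes higher in all), none was lower, 36 had a log2 fold change above 0, and the median was 0.36. Oas2, a sensor of double-stranded RNA, was at 2.81 and 2.98 CPM in WT, 9.87 and 13.7 CPM in AAB and 5.29 and 8.16 CPM in BBA (2.02, adjusted p = 0.0142). Usp18, an inhibitor of interferon receptor signalling, was at 15.9 and 13.8 CPM in WT, 42.3 and 33.5 CPM in AAB and 19.5 and 14.4 CPM in BBA (1.35 against WT, adjusted p = 0.0113, and 1.17 against BBA, adjusted p = 0.0184). Isg15, a ubiquitin-like modifier, changed by 1.26 and Slfn5 by 1.10, and the other called members, named to complete the count, were Ly6a, Irf7, Zbp1 and Ddx60. Oas2, Usp18, Isg15 and Slfn5 each lost their call without at least 1 library, and Oas2 and Isg15 had passed the filter without WT. Without cytokine the same list had a median of 0.47 in AAB over WT. Interferon-induced GTPases were called in the opposite direction, with Gbp11 (-2.76) and Igtp (-0.78) lower and none higher among 15 tested, and the median of 0.08 there differed in sign from the calls.

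Receptors for homing and positioning gave 4 higher (6 with the replicate block) and none lower among 25 tested, against 1.72% of all genes higher, with a median of 0.49. Ccr9, the gut homing receptor, was at 6.9 and 9.3 CPM in WT, 27 and 25.3 CPM in AAB and 64.6 and 76.8 CPM in BBA, in 3 separate steps (1.69 in AAB, SE 0.17, adjusted p = 0.00468). Cxcr5, the follicle homing receptor, was at 38.8 and 47 CPM in WT and 97.5 and 78 CPM in AAB (1.03, adjusted p = 0.0108). Cx3cr1 changed by 1.37 and Gpr183, an oxysterol receptor, by 0.65. Ccr9 kept its call whichever library was left out, and the other 3 did not. Cx3cr1 had passed the filter without WT. B cell markers, which include no member of this list, were at like sums in WT and AAB as given above, and their part in the Cxcr5 and Gpr183 levels was not tested.

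Transcription factors were called in both directions, in small numbers beside 2.57% lower and 1.72% higher of all genes. Myb, which is high in stem-like T cells, was at 30.5 and 27.2 CPM in WT, 62.9 and 63.3 CPM in AAB and 180 and 185 CPM in BBA (1.13 in AAB, SE 0.09, adjusted p = 0.004), the only call among 16 naive and stem-like factors. Tcf7, of the same list and abundant, was at 851 and 984 CPM in WT and 1217 and 1204 CPM in AAB, a change of 0.40 that was not called (adjusted p = 0.0663). Among 21 effector and memory factors 3 were higher, namely Tox (0.86), Ikzf3 (0.74) and, named to complete the count, Gata3 (0.61), and 2 were lower, Hopx (-0.96) and Xbp1. E2f2, a cell cycle factor, was at 43.1 and 47 CPM in WT and 84.5 and 79.7 CPM in AAB (0.87, adjusted p = 0.00483). Myb and E2f2 kept their calls in every leave-one-out fit, but Tox, Ikzf3, Hopx and Xbp1 did not.

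MAP kinase phosphatases were the called members of 28 immediate early genes, 3 higher against 1.72% of all genes and none lower (4 higher and 4 lower with the replicate block). Dusp4 was at 1.87 and 1.55 CPM in WT and 4.8 and 9.81 CPM in AAB (2.09, adjusted p = 0.0328), Dusp6 changed by 1.41 (adjusted p = 0.0461) and Dusp10 by 0.81 (adjusted p = 0.0144). Dusp4 had passed the filter without WT. Dusp6 was at 11.4 and 18.2 CPM in WT, 29.9 and 48.7 CPM in AAB and 22 and 34.4 CPM in BBA, with unequal replicates in each genotype. Lta and Tnfrsf18, the gene of the costimulatory receptor GITR, were the calls among 30 checkpoint and costimulatory genes (2 lower, and 2 lower and 3 higher with the replicate block). Tnfrsf18 was at 146 and 137 CPM in WT and 74.5 and 74 CPM in AAB (-0.93, adjusted p = 0.00468). Nutrient restraint and quiescence genes gave 1 lower (2 with the replicate block) and 1 higher of 30 tested, near the 2.57% and 1.72% of all genes. Ddit4, an inhibitor of mTORC1, rose by 0.86 (adjusted p = 0.00553) and Fnip1, a folliculin partner, fell by 0.64 (adjusted p = 0.0152). Of 24 tested genes near the Stat5 locus, Ghdc was higher (0.86, adjusted p = 0.0291) and the 2 lower were Stat5a and Stat5b (2 higher with the replicate block). Tnfrsf18, Stat5a and Stat5b kept their calls in every leave-one-out fit, and the phosphatases, Ddit4, Fnip1 and Ghdc lost theirs without at least 1 library.

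AAB was then set directly against BBA, a contrast that shares the AAB libraries with the one above. Of the 9956 genes tested 582 were called (5.85%), 269 lower in AAB (2.7%) and 313 higher in AAB (3.14%), and with the replicate block 1088 were called. The genes called lower in AAB against WT had medians of -0.81 in AAB over WT and -1.40 in BBA over WT, and those called higher had medians of 1.0 and 1.24. These contrasts share the WT libraries, and the members were chosen on the AAB contrast. Without AAB replicate 2 the count was 121, without BBA replicate 2 it was 168, without AAB replicate 1 it was 271 and without BBA replicate 1 it was 286.

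Several genes that were not called in AAB against WT differed between AAB and BBA. Smc6, of a chromosome maintenance complex, was at 501 and 531 CPM in WT, 546 and 632 CPM in AAB and 170 and 170 CPM in BBA (1.79 in AAB over BBA, adjusted p = 0.0008). Drc1 was at 82.8 and 62 CPM in WT, 43.4 and 57.7 CPM in AAB and 2.7 and 2.94 CPM in BBA (4.16 in AAB over BBA), with AAB below WT but not called. F2r, the thrombin receptor, differed by 1.33 in AAB over BBA. Cish was higher in AAB than in BBA by 2.30 and Bcl2 by 1.17 (adjusted p = 0.00379 for each), while Myb (-1.53, adjusted p = 0.0008) and Ccr9 (-1.44, adjusted p = 0.00565) were lower in AAB than in BBA. Of 23 cytotoxic genes 4 were higher in AAB than in BBA, and of 43 STAT5 targets 17 were higher and 2 lower. In this contrast 3.14% of all genes tested were higher in AAB and 2.7% lower.

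Whether the AAB effect with IL-15 differed from that without cytokine was tested as an interaction over the 12 Tcm libraries. If the cells without cytokine were taken directly ex vivo, as the methods describe, IL-15 and time in culture cannot be told apart here. Of 10380 genes 14 were called (0.135%), 13 with a lower AAB effect under IL-15 (0.125%) and 1 with a higher effect (0.00963%). Without cytokine 4 genes were called between AAB and WT (0.0395%), Stat5a among them. Slc30a4 was at 17.8 and 16.3 CPM in WT and 13 and 11.8 CPM in AAB without cytokine, and at 85 and 85 CPM in WT and 15.4 and 17 CPM in AAB with IL-15, normalized over these 12 libraries, so only WT libraries were high with IL-15. The AAB effect differed by -1.94 (adjusted p = 0.00505). Lta was at 14.3 and 11.4 CPM in WT and 14.7 and 13.6 CPM in AAB without cytokine against 62.8 and 51.4 CPM and 10.8 and 13.1 CPM with IL-15 (-2.40, adjusted p = 0.00773).

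The same pattern of an IL-15 level in AAB near the level without cytokine held for Setbp1, at 9.49 and 15.4 CPM in WT and 21.5 and 15 CPM in AAB without cytokine and at 105 and 99.8 CPM and 25.3 and 26.5 CPM with IL-15 (-2.51, adjusted p = 0.024). Mov10 differed by -1.63 (adjusted p = 0.00505), the adhesion gene Pkp4 by -1.32, Slc7a5 by -1.28 and Xbp1 by -1.21. At Slc7a5 the AAB libraries were at 70.3 and 76.3 CPM without cytokine and 50.8 and 63.8 CPM with IL-15, while WT went from 73.3 and 79.8 CPM to 143 and 147 CPM. The other 7 called genes, which the naming rule did not cover, were Phb, Phc3, Fkbp4, N4bp1, Ndrg1, A430088P11Rik and Ahsa1, named to complete the count. With IL-15, Ndrg1 (-0.70) and Fkbp4 (-0.68) were called lower in AAB and A430088P11Rik (1.49) higher, while N4bp1 (-0.12) and Ahsa1 (-0.50) were not called. Without cytokine none of these 5 genes was called, with values of 1.05 for Ndrg1, 0.41 for Fkbp4, -0.26 for A430088P11Rik, 0.92 for N4bp1 and 0.52 for Ahsa1. Median interactions were -0.51 for nucleotide, serine and one-carbon synthesis, -0.47 for DNA replication and -0.45 for ribosome biogenesis, against 0.01 for all genes and -0.12 for interferon-stimulated genes. The count of 14 became 282 under the replicate block, 3 to 7 calls without WT replicate 2 or AAB replicate 2 with IL-15 or any library without cytokine, and 0 without WT replicate 1 or AAB replicate 1 with IL-15.

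**Figure D5:**
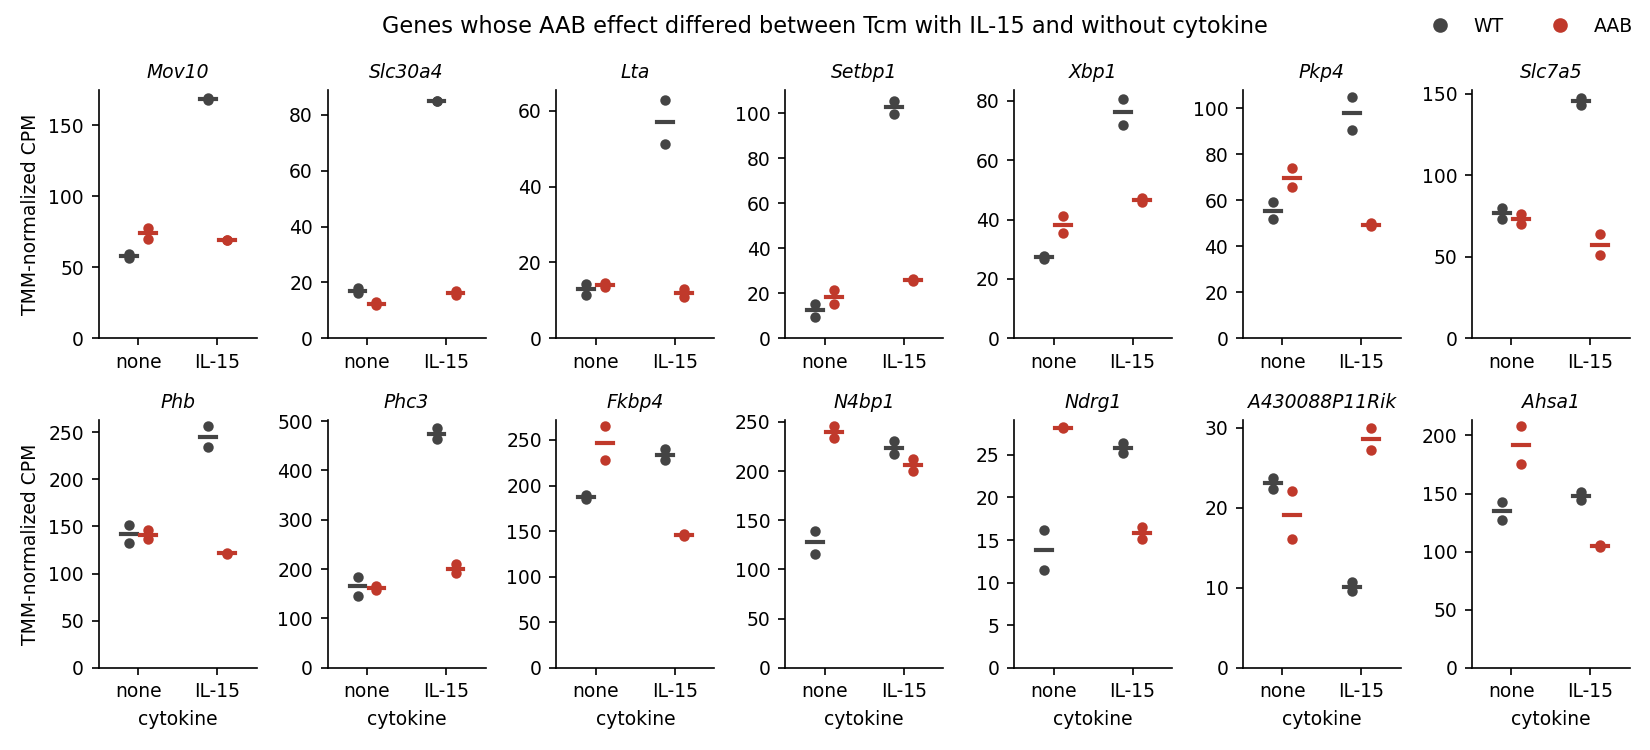
TMM-normalized CPM of the 14 genes called for a difference in the AAB effect between Tcm without cytokine (none) and with IL-15, in WT (black) and AAB (red). Points are libraries and bars are means of 2, and each panel has its own axis from 0. At Slc30a4, Lta and Setbp1 the WT libraries with IL-15 stand apart from all others, and A430088P11Rik is the only gene with a higher AAB effect with IL-15.

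The genes called here were also followed in conditions that share no library with them, namely Tcm without cytokine, effector memory cells (Tem) with IL-15 and naive cells (Tnv) with IL-15. Of the 256 lower genes 249 were tested in Tem, and 244 of these (98.0%) were below 0 there with a median of -0.56, compared with 47.7% of all genes tested in Tem. In Tnv 239 of 242 (98.8%) were below 0 with a median of -0.72, compared with 52.5% of all genes. In Tcm without cytokine 178 of 244 (73.0%) were below 0 with a median of -0.07, compared with 49.2% of all genes.

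Of the 171 higher genes 164 were tested in Tem and 156 (95.1%) were above 0 (median 0.58, 52.3% of all genes). In Tnv 136 of 152 (89.5%) were above 0 (median 0.65, 47.5% of all genes), and in Tcm without cytokine 134 of 157 (85.4%) were above 0 (median 0.36, 50.8% of all genes). The tests called few genes between AAB and WT in these conditions, 2 in Tem (0.0191% of genes tested) and 72 in Tnv (0.727%). Of the lower genes 2 were called in the same direction in Tem, 29 in Tnv and 1 in Tcm without cytokine. These counts include the deleted gene Stat5a. It was the only such call in Tcm without cytokine, and the calls in Tem were Stat5a and Cdk6. Of the higher genes 0, 21 and 3 were called in the same direction in Tem, Tnv and Tcm without cytokine. Myc was called in Tnv (-1.94, adjusted p = 0.0268) and had values of -1.54 in Tem (adjusted p = 0.205) and -0.36 in Tcm without cytokine (adjusted p = 1.0). Capn11 was called in Tnv (4.86, adjusted p = 0.0301) and had values of 3.50 in Tem (adjusted p = 0.50) and 4.61 in Tcm without cytokine (adjusted p = 0.369), which did not pass. The labels do not say whether these libraries came from the same animals.

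A test of whether the AAB effect with IL-15 differed between Tcm and Tem called 0 of 10268 genes in edgeR (0%), with 277 genes at an unadjusted p under 0.05, and DESeq2 called 6. Apart from Stat5a, the smallest p-values were at Bach1 (0.59), Lta (-1.44), Slc30a4 (-1.10), Camk2b (1.89) and Ttc17 (0.54), each with an adjusted p of 0.932. Lta, for example, was at 66.4 and 54.5 CPM in WT and 11.5 and 13.8 CPM in AAB in Tcm, and at 36.3 and 26.6 CPM in WT and 17.7 and 18 CPM in AAB in Tem.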

How the data were processed

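Raw read counts by gene symbol, deposited by the authors for 48 CD8+ libraries, were used. Per the methods, single-end 50-base reads of polyA RNA were aligned with TopHat2 to mm10 and counted with HTSeq. The submitters' processing notes name mm9 and also Cufflinks. Annotation and strand setting were not given in the sources used here, and the library kit does not mark strand. Paralogs and overlapping genes can share reads.

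The 6 Tcm libraries with IL-15 were fitted together by genotype in edgeR 4.0.16 under R 4.3.3 (TMM, quasi-likelihood in its older form). Genes above a threshold of 98.96 normalized counts in any library were kept (highest Jaccard index between replicates among 100 thresholds from 1 to 200, loess span 0.3). A call needed more than 1.5-fold and a Benjamini-Hochberg adjusted p under 0.05. Interactions used the 12 libraries of 2 conditions. Scripts were tested on simulated data with seed 20260101. Replicates differed beyond counting noise (chi-square per degree of freedom 19.9 in WT, 17.6 in AAB and 11.8 in BBA). Same-numbered libraries deviated together from their group means (correlations 0.426, 0.353 and 0.330, each over 0.1). The replicate block, run as an alternative, therefore took the numbers to pair the samples. The main fits and their p-values did not use this pairing.

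Named genes were Stat5a and Stat5b, the 12 largest fold changes in each direction among calls averaging 50 normalized counts or more whose libraries did not overlap, all called STAT5 targets with up to 6 abundant uncalled ones, up to 4 called members of every other list (2 abundant members where none was called), and up to 6 genes of each interaction and of AAB against BBA. Other genes are named only to complete a count, and 2 genes that the rule covers are not reported here. The members and lists were chosen with earlier results of these data known. The CD4+ and retrovirus tables were not used here, and 2 samples with contradictory labels were left unassigned. Positions and exon lengths are from the GRCm38 annotation. Promoter windows are from RefSeq GRCm38.p6. Alternatives were other filters, size factors from DESeq2 1.42.0, DESeq2 itself, the edgeR 4 form, the replicate block, Bonferroni adjustment, other sets of libraries in the fit, and leaving out each library.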

Additional observations from a re-analysis of the deposited data

Results flagged for a closer look

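The AAB effect of 14 genes differed between Tcm with IL-15 and Tcm without cytokine by the interaction test itself. IL-15 and time in culture cannot be told apart in that test if the cells without cytokine were taken directly ex vivo. The difference, the log2 fold change of AAB over WT with IL-15 minus that without cytokine, was -1.63 for Mov10, -1.94 for Slc30a4, -2.40 for Lta, -2.51 for Setbp1, -1.21 for Xbp1, -1.32 for Pkp4 and -1.28 for Slc7a5. It was -1.01 for Phb, -1.22 for Phc3, -1.07 for Fkbp4, -1.02 for N4bp1, -1.74 for Ndrg1 and -1.0 for Ahsa1, and 1.77 for A430088P11Rik. Phb, a mitochondrial inner membrane protein gene, was at 152 and 132 CPM in WT and 137 and 146 CPM in AAB without cytokine, and at 256 and 234 CPM in WT and 122 and 121 CPM in AAB with IL-15. Phc3, a Polycomb group gene, was at 146 and 183 CPM in WT and 158 and 166 CPM in AAB without cytokine, and at 485 and 464 CPM and 210 and 192 CPM with IL-15. At both genes the genotypes overlapped without cytokine and were apart with IL-15. With 2 libraries a group, samples far from the rest could not be tested for.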

How the results depend on the processing

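In AAB against WT the 427 calls became 1046 with no filter on low counts, 703 with the replicate block, 11 with Bonferroni adjustment and 261 in 1 fit over all CD8+ libraries (220 lower and 41 higher), and 100 to 227 when a library was left out. They stayed within 1.5-fold, at 413 to 610, with filterByExpr, DESeq2 size factors, DESeq2, the edgeR 4 form and WT and AAB libraries alone. In AAB against BBA the 582 calls became 932 with filterByExpr, 1867 with no filter, 1088 with the replicate block, 11 with Bonferroni adjustment, 263 in 1 fit over all CD8+ libraries and 121 to 286 with a library left out. The 14 interaction calls between IL-15 and no cytokine became 4 with filterByExpr, 30 with no filter, 159 with DESeq2, 282 with the replicate block, 3 with Bonferroni adjustment and 0 to 7 with a library left out. The interaction between Tcm and Tem had 6 calls with DESeq2 and 0 in edgeR under every other setting run, the replicate block included. The causes were not tested.

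All 91 named called genes kept their call under the replicate block, DESeq2, DESeq2 size factors and the edgeR 4 form, 90 under each other filter (Gpr183 lost it), 87 with WT and AAB alone, 60 in the fit over all CD8+ libraries, 41 to 62 with a library left out and 8 with Bonferroni adjustment. No named gene called in AAB against WT reversed its direction. Replicates differed beyond counting noise, and depth was not varied. With a library left out, the lone library of a group was assumed to vary like the other groups.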
